A study of Mus musculus with 4 samples.

Results

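The Rnf genes, named for the RING finger of the proteins they encode, were followed in livers of fasted and refed mice. They were taken by name as every gene on the array whose symbol begins with Rnf and a digit, which gave 80 of the 31829 genes named on the array. Of these, 66 passed the limit on dim probes, against 16084 of all genes. RNA came from whole livers of male C57BL/6J mice (labelled C57/Bl6) aged 8 to 12 weeks, with no transgene or deletion in either group. The 4 fasted mice had no food for 24 h. The 4 refed mice had the same 24 h fast and then 2 h of food, so both groups were fasted. Per the study's methods the fasted mice were killed at the end of the fast and the refed mice after the meal, so the time of sampling differed with the meal. Each of the 4 two-colour arrays held 1 fasted and 1 refed liver, with the fasted liver in Cy5 on replicates 1 and 2 and in Cy3 on replicates 3 and 4.

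A RING finger is a small zinc-binding fold that docks an E2 enzyme charged with ubiquitin. The protein that carries it, an E3 ligase, holds the E2 beside a chosen substrate so that ubiquitin passes to the substrate, which may then be degraded, moved or altered in its signalling. The Rnf name groups proteins by this fold alone, and its members sit in the nucleus, the cytosol and the membranes of the ER, lysosome and cell surface. In the liver, which moves between export and storage of fuel within hours of a meal, membrane-bound RING ligases are known for the turnover of sterol enzymes and misfolded secretory proteins.

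The genes were selected by the same fasted over refed ratios that are given here, with the rise of Rnf125 named in the choice, so these ratios and the calls made on them are a description, and no test of the condition is attached to them. A gene is given by its brightest kept probe, a ratio is the log2 of fasted over refed liver with the dye turned, and a level is the log2 intensity of 1 liver in its own channel after normalization. A gene was called where the fit over the whole array gave an adjusted p under 0.10 and the change was at least 1.5-fold. At this limit 4 of the 66 Rnf genes were called higher in fasted liver (6.06%, against 1.82% of all genes) and 1 was called lower (1.52%, against 2.13%). Nothing is read from these shares, since the choice used the same contrast. Rnf125, Rnf152, Rnf103 and Rnf169 were the genes called higher and Rnf145 the gene called lower. The other 61 were not called.

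Because the study asked how CREB, the cAMP response element binding protein, acts in the fasted liver, the promoters of 4 of the 5 called genes are shown for the letters of its element. Rnf125 has no entry in the promoter table. The windows are the 250 bases before the start of each gene in RefSeq (GRCm38.p6), read 5′ to 3′ on the gene's strand. Capitals mark the CRE core TGACG or its reverse complement CGTCA. A sequence with no capitals holds neither. Rnf145 has 3 windows in RefSeq, of which the first is shown, and none of the 3 holds the core.
Rnf103, chr6:71493627-71493876, plus strand: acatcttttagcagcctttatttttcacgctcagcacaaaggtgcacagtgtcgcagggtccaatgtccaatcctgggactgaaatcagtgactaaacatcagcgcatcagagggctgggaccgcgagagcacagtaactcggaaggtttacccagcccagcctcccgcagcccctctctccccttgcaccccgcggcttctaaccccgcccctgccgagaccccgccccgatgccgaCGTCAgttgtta
Rnf152, chr1:105356711-105356960, minus strand: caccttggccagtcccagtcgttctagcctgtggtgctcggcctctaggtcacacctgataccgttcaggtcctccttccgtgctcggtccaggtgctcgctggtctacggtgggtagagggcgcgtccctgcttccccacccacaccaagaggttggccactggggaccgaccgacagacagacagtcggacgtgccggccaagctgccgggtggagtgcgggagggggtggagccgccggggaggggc
Rnf169, chr7:99980459-99980708, minus strand: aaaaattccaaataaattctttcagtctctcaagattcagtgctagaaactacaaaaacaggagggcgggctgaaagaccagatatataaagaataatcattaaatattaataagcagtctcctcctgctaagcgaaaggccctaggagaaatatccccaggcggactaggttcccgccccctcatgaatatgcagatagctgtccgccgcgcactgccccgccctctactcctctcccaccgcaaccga
Rnf145, chr11:44518706-44518955, plus strand: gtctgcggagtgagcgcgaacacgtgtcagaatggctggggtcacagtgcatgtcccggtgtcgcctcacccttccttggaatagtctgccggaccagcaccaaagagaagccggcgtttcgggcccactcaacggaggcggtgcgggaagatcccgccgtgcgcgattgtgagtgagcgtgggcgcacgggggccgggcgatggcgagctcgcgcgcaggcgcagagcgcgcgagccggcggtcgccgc
In the Rnf103 window the core CGTCA begins 12 bases before the start. Of the 80 Rnf genes, 63 have a window in the table, and the core lay in any window of 22 of them (34.9%), against 19.8% of the 27025 genes with a window and 22.6% of the 17492 protein-coding genes with one. The full palindrome TGACGTCA, which contains both forms of the core, lay in 1 (Rnf7, 1.59%), against 1.77% of all genes with a window. The study's own rule for a full element, which it applied around CREB binding sites, also takes the palindrome with 1 mismatch. By it 10 of the 63 (15.9%) hold one, Rnf103 among them, against 12.1% of all genes with a window. The windows of Rnf152, Rnf169 and Rnf145 hold none by that rule. A match is a description of the letters and not a bound site. The study's map of CREB binding in liver was not used here.

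Rnf125 stood apart from every other Rnf gene. It encodes a small lipid-anchored ligase first described in T cells, known to mark the RNA sensors RIG-I and MDA5, the adaptor MAVS, p53 and the kinase JAK1 with ubiquitin. Its ratio was 1.76, 1.32, 2.55 and 3.16 on replicates 1 to 4, a mean of 2.20 ± 0.82 (SD, n = 4), or 4.59-fold. The fasted levels were 11.06, 10.34, 11.90 and 12.25. The refed levels were 9.30, 9.02, 9.35 and 9.09. Every fasted liver was above every refed liver, and the refed livers lay close together while the fasted livers spread widely. The fasted levels were lower with the fasted liver in Cy5 (replicates 1 and 2) than in Cy3 (replicates 3 and 4). Rnf125 was the only Rnf gene past 1.5-fold on each of the 4 arrays and the only one with a mean past 2-fold. Without it the means of the other 65 ran from −0.87 to 0.66 with a median of 0.03. With normexp fitted on all spots the Rnf125 ratio was 1.31 and its call was lost.

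The relatives of Rnf125, which share its zinc finger and ubiquitin-binding layout, had ratios near 0. Rnf138, a ligase of DNA repair and Wnt signalling, had a ratio of 0.13 ± 0.06 (SD, n = 4). Rnf166 had −0.01 ± 0.11 and Rnf114 −0.03 ± 0.13 (SD, n = 4), and none of the 3 was called. Since Rnf125 is abundant in T cells, blood cell markers were read beside it. Of 7 T cell and leukocyte markers, 5 were kept, at log2 intensities of 6.4 to 11.8. By limma or by SAM 0 were called (1 at an unadjusted p under 0.05). Their mean ratio was 0.09, −0.02, 0.15 and 0.06 on replicates 1 to 4. Red blood cell markers (3 of 3 on the array) averaged 1.73, −0.27, 1.99 and 0.20, with 0 called by limma, 1 by SAM and 2 at an unadjusted p under 0.05. Their part in the Rnf125 ratio was not tested. In bulk liver, a change in the number of cells of a type and a change in RNA per cell cannot be told apart.

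**Figure D1:**
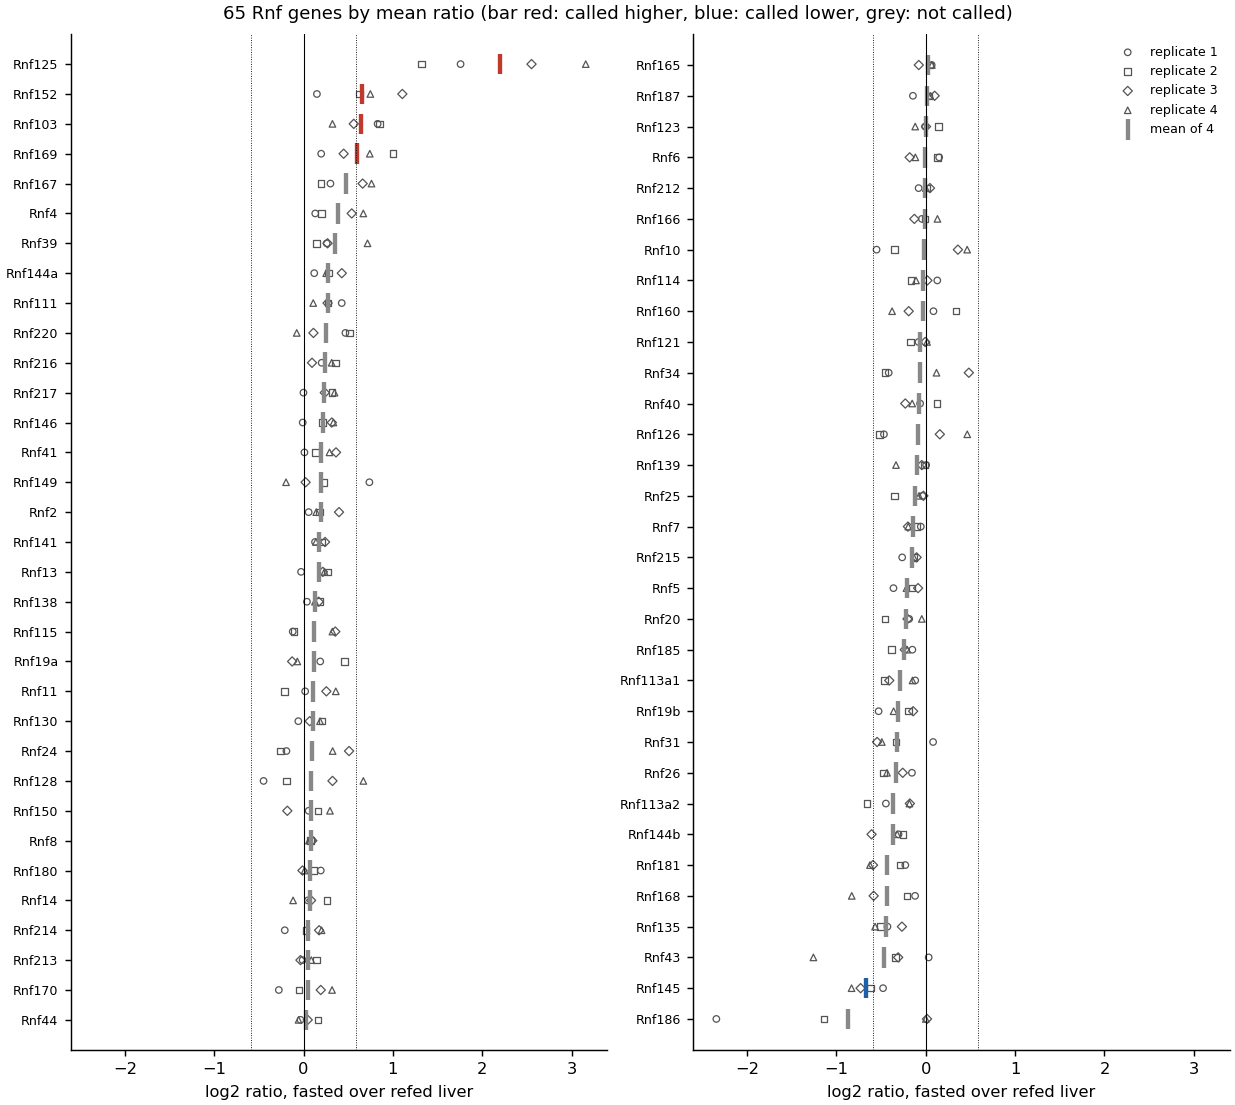
Log2 ratio of fasted over refed liver for 65 of the 66 kept Rnf genes, ordered by mean, with an open symbol for each of the 4 arrays, a bar for the mean and dotted lines at 1.5-fold. Rnf125 has a mean of 2.20 while the others shown lie between −0.87 and 0.66, and the widest spread between arrays is that of Rnf186.

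Rnf152, Rnf103 and Rnf169 were called higher by smaller amounts. Rnf152, a lysosomal membrane ligase known to mark the RagA GTPase and so to dampen mTORC1 when amino acids are low, had ratios of 0.15, 0.63, 1.11 and 0.75, a mean of 0.66 ± 0.39 (SD, n = 4). Its fasted levels were 7.61, 7.62, 8.08 and 8.20 and its refed levels 7.46, 7.0, 6.98 and 7.45. The groups did not overlap, but replicate 1 showed only a small difference. Over the alternatives the mean ran from 0.21 to 1.07, the lowest with normexp fitted on all spots. The probe lies at chr1:107176763-107176822 (mm9, as the array files give it).

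Rnf103, an ER membrane ligase linked to degradation of ER proteins, had ratios of 0.83, 0.85, 0.56 and 0.32, a mean of 0.64 ± 0.25 (SD, n = 4). Its fasted levels were 11.46, 11.31, 11.21 and 11.08 and its refed levels 10.63, 10.46, 10.65 and 10.75. All 4 fasted livers lay above all 4 refed livers. A second, dimmer Rnf103 probe had 0.57 ± 0.27 (SD, n = 4) and was not called, its fold of 1.49 falling short of the limit. The brighter probe lies at chr6:71460793-71460852 (mm9), and its core-bearing promoter is the first of those printed above.

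Rnf169, a nuclear ligase that binds ubiquitylated histones at DNA breaks, had ratios of 0.20, 1.0, 0.45 and 0.74, a mean of 0.60 ± 0.35 (SD, n = 4), by a probe at chr7:107068860-107068919 (mm9). Its fasted levels were 9.95, 10.22, 9.84 and 9.68 and its refed levels 9.76, 9.23, 9.39 and 8.94. The groups overlapped, because the refed liver of replicate 1 was above the fasted liver of replicate 4. With replicate 2 left out, Rnf152, Rnf103 and Rnf169 all lost their call, as they did without replicate 3. Without replicate 1 Rnf103 lost it, and without replicate 4 Rnf152 and Rnf169 did. Rnf152, Rnf103 and Rnf169 also lost it with normexp fitted on all spots, and Rnf103 and Rnf169 with median centring. Over the alternatives the Rnf169 mean ran from 0.34 to 0.73 and that of Rnf103 from 0.50 to 0.75.

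Rnf145 was the one gene called lower. It encodes an ER membrane ligase with a sterol-sensing domain, known to help degrade HMG-CoA reductase and to be induced through the sterol receptor LXR. Its ratios were −0.48, −0.62, −0.73 and −0.83, a mean of −0.66 ± 0.15 (SD, n = 4), by a probe at chr11:44378746-44378805 (mm9). The fasted levels were 7.33, 7.33, 7.19 and 7.43 and the refed levels 7.81, 7.95, 7.92 and 8.27. Every refed liver was above every fasted liver, the call was kept without any 1 replicate, and the spread was the narrowest of the 5 called genes. With normexp fitted on all spots the ratio was −0.29 and the call was lost.

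**Figure D2:**
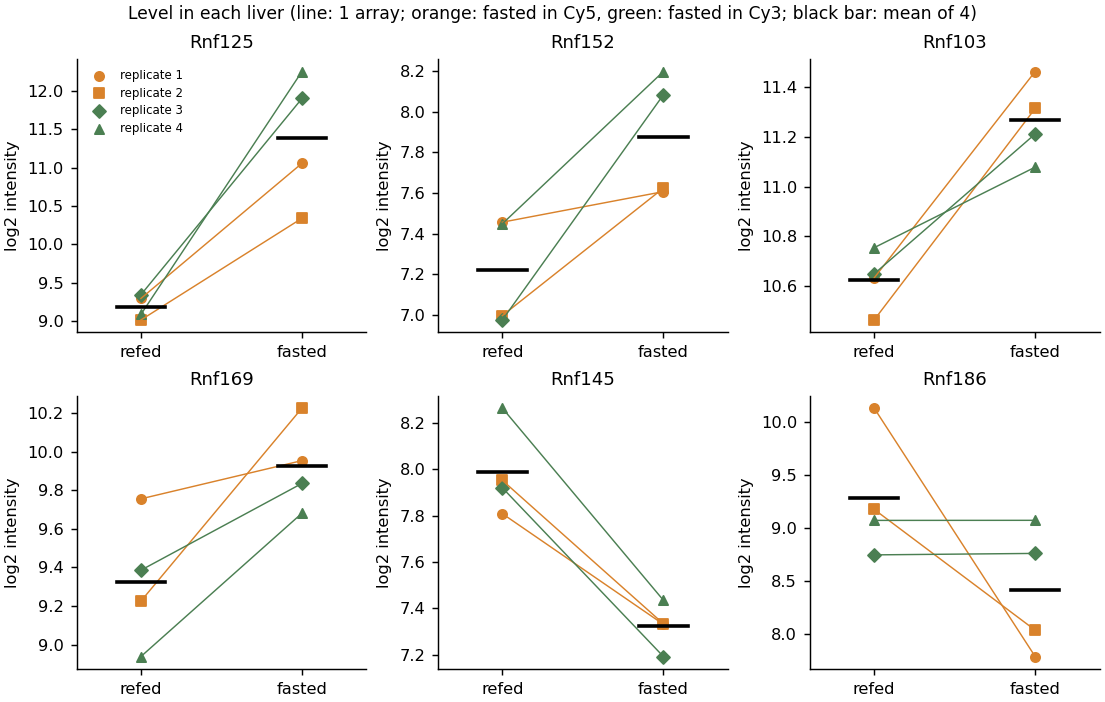
Log2 intensity of 6 Rnf genes in each of the 8 livers, with a line joining the refed and fasted liver of 1 array, coloured by the dye of the fasted liver, and a black bar at the mean of 4. The groups separate for Rnf125, Rnf152, Rnf103 and Rnf145, overlap for Rnf169, and for Rnf186 the lines of replicates 3 and 4 are flat.

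Rnf186 had the lowest mean of all and was not called. It encodes an ER membrane ligase known mainly from the gut epithelium and ER stress signalling. Its ratios were −2.34, −1.14, 0.01 and 0.00, a mean of −0.87 ± 1.12 (SD, n = 4), so that the whole difference lay on the arrays with the fasted liver in Cy5. Its fasted levels were 7.79, 8.04, 8.76 and 9.07 and its refed levels 10.13, 9.17, 8.75 and 9.07, which overlap. Without replicate 1 the mean was −0.38. It was called lower only when a dye term was added to the model. With 2 arrays in each orientation, an equal gain of Cy5 over Cy3 on each array cancels in the mean. For the split between the orientations, the dye and the livers on those arrays cannot be told apart.

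The dye effect, a gain of Cy5 over Cy3 that keeps its sign whichever liver carries the dye, was not used to choose the genes and was therefore tested. In limma with a dye term it passed an adjusted p of 0.10 in 13 of the 66 Rnf genes (19.7%), against 15.4% of all genes. Of the 13, 3 were brighter in Cy5 (Rnf220, Rnf160 and Rnf168) and 10 were brighter in Cy3 (Rnf125, Rnf167, Rnf4, Rnf115, Rnf24, Rnf128, Rnf10, Rnf34, Rnf126 and Rnf186). Rnf186 had the largest effect, −0.87 on the log2 scale of Cy5 over Cy3 (adjusted p = 0.0534), and Rnf125 the next, −0.66 (adjusted p = 0.0459). For Rnf125 the direction of the condition was the same in both orientations. For 8 of the 13 its sign turned with the dye, although Rnf186 was at or near 0 on replicates 3 and 4, and 7 had a mean ratio within 0.25 of 0.

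Rnf10, Rnf126, Rnf34, Rnf24 and Rnf128 show the pattern. Rnf128, known as GRAIL, a membrane ligase of T cell anergy, had ratios of −0.45, −0.19, 0.32 and 0.67. Rnf10, a ligase of stalled ribosomes, had −0.55, −0.35, 0.36 and 0.46. These genes were lower in the fasted liver on replicates 1 and 2 and higher on replicates 3 and 4, and their means of 0.09 and −0.02 sit near 0. Leaving out 1 replicate leaves 1 array in an orientation, so such fits cannot show whether the count of dye effects rests on particular arrays. The count moved with the processing, to 6 with normexp fitted on all spots. It was 2 with median centring or with Agilent's processed signals.

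**Figure D3:**
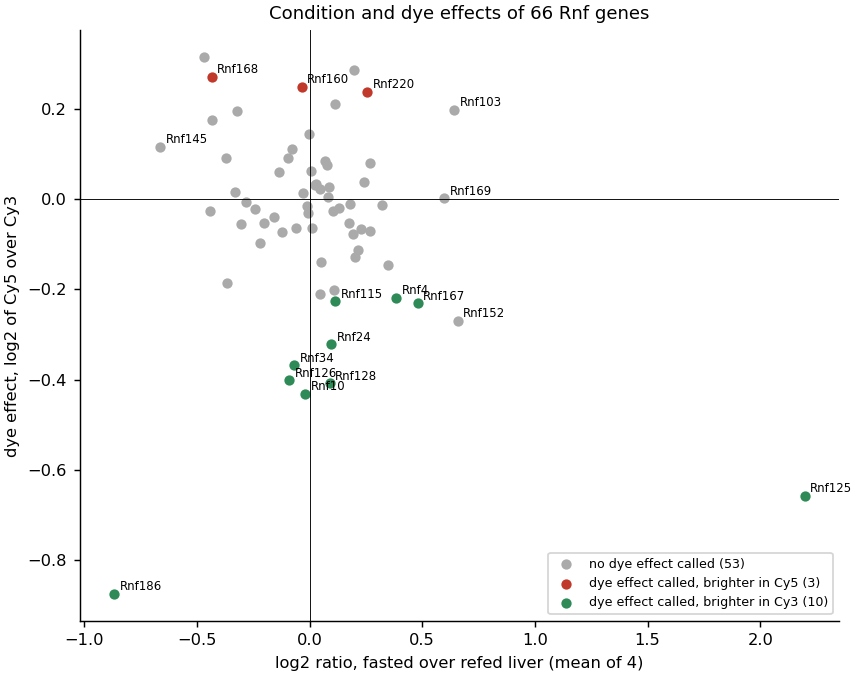
Dye effect (log2 of Cy5 over Cy3) against the log2 ratio of fasted over refed liver for the 66 kept Rnf genes, with the 13 genes whose dye effect passed the test in colour. Rnf125 and Rnf186 have the largest dye effects, −0.66 and −0.87, and lie at opposite ends of the condition axis.

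Across the 66 genes, arrays of one orientation were alike, with Pearson's r of 0.80 between replicates 1 and 2 and 0.91 between 3 and 4, and of 0.75 and 0.83 without Rnf125. Between orientations r ran from 0.45 to 0.61, and without Rnf125 from 0.16 to 0.50. Over all genes r was 0.67 and 0.76 within an orientation and 0.23 to 0.40 between them. These correlations run across genes, which are not independent replicates. The median mean ratio of the Rnf genes was 0.04, against 0.003 for all genes, and the median size of the change was 0.18 against 0.11. Ratios within 0.25 of 0 were seen for 43 of the 66, positive means for 37 and negative means for 29. Over all 16084 kept genes these counts were 12516, 8164 and 7920. Of the 66, 31 had one sign on all 4 arrays (47%, against 29.9% of all genes), 16 positive and 15 negative.

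The levels of the 2 groups did not overlap for 17 of the Rnf genes. In 7 all 4 fasted livers were above all 4 refed livers (10.6%, against 6.03% of all genes), among them Rnf125, Rnf152, Rnf103, Rnf39, Rnf144a and Rnf111. In 10 all 4 were below (15.2%, against 7.77%), namely Rnf145, Rnf135, Rnf168, Rnf144b, Rnf113a2, Rnf26, Rnf19b, Rnf20, Rnf5 and Rnf215. By a second, dimmer probe the groups overlapped for Rnf135 (−0.28), Rnf144b (−0.11) and Rnf26 (−0.20), and were separate for Rnf103. Rnf135, known to mark RIG-I with activating ubiquitin chains and so to act on the same sensor as Rnf125, had −0.43, −0.51, −0.27 and −0.57, a mean of −0.44 ± 0.13 (SD, n = 4). It did not reach 1.5-fold and was not called.

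The counts of calls in the role groups stand beside the 1.82% of all genes called higher and 2.13% called lower, and nothing is read from them. By role, the 8 nuclear ligases of chromatin, SUMO and DNA damage had a median ratio of 0.14, with 1 called higher (Rnf169), 0 called lower and 7 not called. Rnf4, which targets SUMO-bearing proteins, had 0.39 ± 0.26 (SD, n = 4). Rnf111, another such ligase, had 0.27 ± 0.13 and Rnf2, the catalytic subunit of Polycomb complex PRC1, 0.19 ± 0.14 (SD, n = 4). Rnf168, which ubiquitylates histone H2A at DNA breaks and competes with Rnf169 for the mark, had the lowest value of the group, −0.44 ± 0.33 (SD, n = 4). Rnf20, a ligase of histone H2B, had −0.22 ± 0.17, its partner Rnf40 −0.08 ± 0.15, and Rnf8, which acts before Rnf168, 0.08 ± 0.02 (SD, n = 4). The called Rnf169 and the uncalled Rnf168 thus lay on opposite sides of 0.

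The ER membrane and secretory group had 10 kept genes and a median of −0.15, with 1 called higher (Rnf103), 1 called lower (Rnf145) and 8 not called. Means were negative for 7 of the 10. Rnf5 and Rnf185, close relatives that act in ER-associated degradation, had −0.20 ± 0.12 and −0.24 ± 0.10 (SD, n = 4). Rnf26, which holds endosomes near the nucleus from the ER membrane, had −0.33 ± 0.15, and Rnf139, known as TRC8 and also a ligase of sterol regulation, −0.10 ± 0.16 (SD, n = 4). Rnf121, Rnf170 and Rnf180 lay between −0.06 and 0.08. In this group 5 genes lay below 0 by less than 1.5-fold, Rnf145 and Rnf186 by more, and Rnf103, Rnf170 and Rnf180 above 0.

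In the lysosome, endosome and nutrient group 7 genes were kept, with a median of 0.11, 1 called higher (Rnf152), 0 called lower and 6 not called. Rnf167, a lysosomal ligase, was the nearest to a call at 0.48 ± 0.27 (SD, n = 4), and its 2 probes gave 0.27 and 0.48. Of the 7, 4 had a called dye effect (Rnf167, Rnf115, Rnf34 and Rnf126), against 13 of the 66 Rnf genes and 15.4% of all genes. Rnf41, known as Nrdp1, a ligase of receptor turnover, had 0.20 ± 0.16, and Rnf11, an adaptor of endosomal sorting, 0.11 ± 0.26 (SD, n = 4).

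The 7 kept membrane ligases with a protease-associated domain had a median of 0.10 and none was called. Rnf43, which removes Wnt receptors from the cell surface and is itself a Wnt target, had 0.03, −0.34, −0.31 and −1.26, a mean of −0.47 ± 0.55 (SD, n = 4), most of it on replicate 4. The others, Rnf13, Rnf128, Rnf130, Rnf149, Rnf150 and Rnf167, had positive means, from 0.08 to 0.48. Of these only Rnf167 was positive on every array, by its brighter probe, while its dimmer probe had −0.03 on replicate 4. None of the 8 RING-between-RING ligases, which take ubiquitin onto themselves before passing it on, was called either, and their median was 0.09. Rnf144a had 0.27 ± 0.13 and its paralog Rnf144b −0.37 ± 0.16 (SD, n = 4), on opposite sides of 0. A second, dimmer Rnf144b probe had −0.11 ± 0.10 (SD, n = 4). Rnf31, the catalytic subunit of the linear ubiquitin ligase LUBAC, had −0.32 ± 0.28, Rnf19b −0.31 ± 0.17 and Rnf216 0.24 ± 0.12 (SD, n = 4). Rnf14, Rnf19a and Rnf217 lay between 0.07 and 0.23.

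Among the genes outside these groups, Rnf39 (0.35 ± 0.25) was the next highest, and Rnf181 (−0.43 ± 0.20) and Rnf113a2 (−0.37 ± 0.23, SD, n = 4) followed Rnf135 as the lowest. Both Rnf181 probes gave −0.43 or −0.44. More than 1 probe was kept for 18 Rnf genes. Their probes differed by at most 0.28, and differed in sign for Rnf141 and Rnf170. The 14 genes that did not pass the limit on dim probes, and so have no ratio here, were Rnf17, Rnf32, Rnf112, Rnf122, Rnf133, Rnf148, Rnf151, Rnf157, Rnf182, Rnf183, Rnf207, Rnf208, Rnf219 and Rnf222. Rnf160 and Rnf219 are now named Ltn1 and Obi1.

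The enzymes that feed the ligases were read beside them. Of the 42 E1 and E2 genes on the array, 38 were kept, with a median of −0.06. By limma 0 rose and 3 fell, as by SAM, against 1.82% and 2.13% of all genes by limma. Averaging the kept probes of a gene left 1 call. At an unadjusted p under 0.05, 4 were higher and 4 lower, a limit at which no share of all genes was counted. Among those that fell were a pair of E2 enzymes. Ube2f, an E2 for NEDD8, fell by 0.67 (SD 0.09, n = 4, limma adjusted p = 0.00993). Ube2g2, the E2 of ER-associated degradation, fell by 0.59 (SD 0.38, n = 4, limma adjusted p = 0.074). Its ratios were −0.04, −0.64, −0.79 and −0.89, the groups overlapped, and the call was lost without replicate 2 (−0.57), 3 (−0.52) or 4 (−0.49). Ube2b, a partner of Rad18 and Rnf20, had 0.49 ± 0.16 (SD, n = 4), below the fold limit.

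Of 162 other ligase genes, listed as RING-type largely by family name, 117 were kept, 3 rose and 5 fell, with a median of 0.01, beside the same 1.82% and 2.13% of all genes. At an unadjusted p under 0.05, 13 were higher and 25 lower, a limit at which no share of all genes was counted. Syvn1, known as Hrd1, the central ligase of ER-associated degradation that works with Ube2g2, fell by 2.33 on the log2 scale. Trim14 fell by 0.86. It has no RING finger, and the list also holds others without one, such as Trim44 and the HECT ligase Trip12. Traf3 fell by 0.85, Traf5 by 0.62 and Lonrf1 by 0.61. Trim14 lost its call without replicate 2, 3 or 4, Traf3 without 2 or 3, Traf5 without 4 and Lonrf1 without 1 or 2. Brap, a BRCA1-binding ligase of Ras signalling, rose by 1.16 with little spread (SD 0.04, n = 4). Cblb, a ligase of receptor kinases, rose by 0.72. Mylip, known as Idol, which degrades the LDL receptor and like Rnf145 is induced through LXR, rose by 0.71. In this list the size of the Rnf125 ratio was passed only by that of Syvn1, which moved the other way.

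The known targets of Rnf125 and the interferon genes that lie after them were the last list, and all 18 were kept. Trim14, a MAVS adaptor counted in both lists, was called lower (−0.86 ± 0.47 (SD, n = 4), limma adjusted p = 0.045). The other 17 did not pass, and 0 rose by limma, by SAM or at an unadjusted p under 0.05. SAM called 2 lower, and 4 were lower at an unadjusted p under 0.05, a limit at which no share of all genes was counted. Over all genes limma called 1.82% higher and 2.13% lower. Ddx58, which encodes RIG-I, had −0.10 ± 0.18, Ifih1, which encodes MDA5, 0.07 ± 0.36, Jak1 −0.04 ± 0.25 and Trp53 0.03 ± 0.10 (SD, n = 4). Mavs had −0.46 ± 0.26 (SD, n = 4), short of the fold limit. The interferon-induced Isg15 had a mean of −0.80 ± 0.73 (SD, n = 4) and spread from −1.67 to 0.04. The list's mean was 0.12, −0.08, −0.41 and −0.34 on replicates 1 to 4, while Rnf125 was higher on all 4. This split follows the dye orientation, and 4 of the 18 (Ifih1, Ifit3, Ifit1 and Isg15) had a called dye effect, all brighter in Cy5 by 0.31 to 0.55, against 15.4% of all genes. Its count of 1 became 3 without replicate 1 and 0 without replicate 2, 3 or 4.

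**Figure D4:**
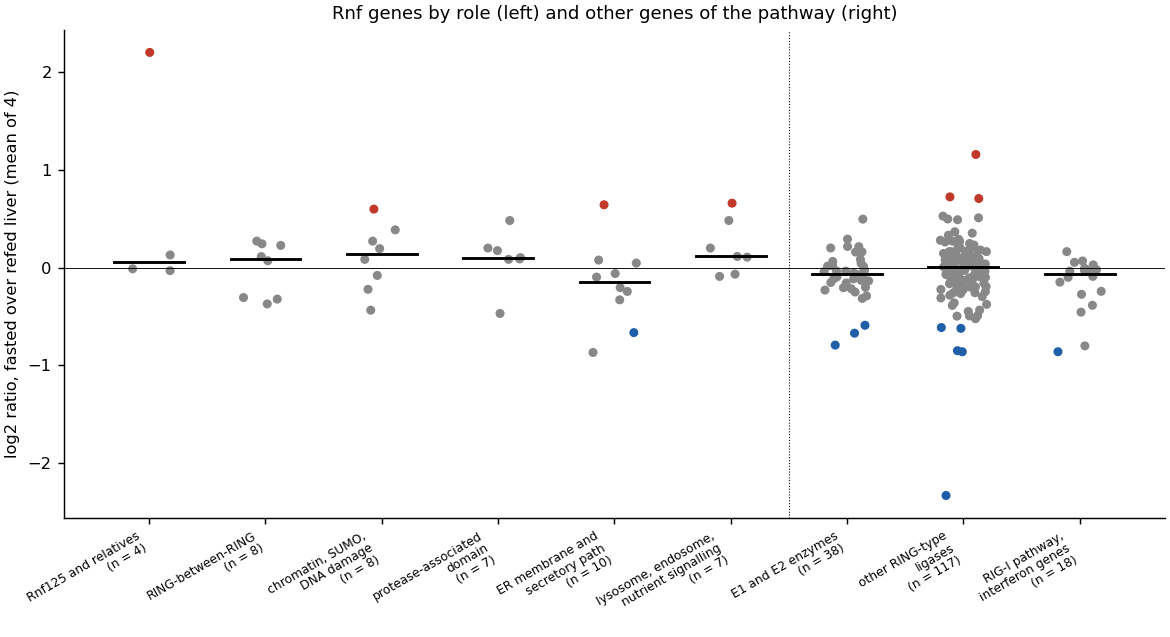
Mean log2 ratio of fasted over refed liver (4 arrays) for each kept gene, by role among the Rnf genes (left of the dotted line) and in the other lists of the pathway (right), with black bars at medians and called genes in red (higher) or blue (lower). Rnf125 at 2.20 and Syvn1 at −2.33 are the extremes, and the medians of the groups lie between −0.15 and 0.14.

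The tissue label was borne out by hepatocyte markers, of which 7 of 7 were kept at log2 intensities of 14.5 to 17.2 and 1 (Tat, an amino acid enzyme of fasting) was called higher. Their mean ratio was 0.39, 0.42, 0.03 and −0.05 on replicates 1 to 4, and 2 were higher at an unadjusted p under 0.05. Over the arrays, median spot intensity ran from 40 to 96 and median local background from 20 to 35. On replicate 3 the 4 kept of 11 pancreatic acinar markers averaged −3.26, against 0.04 to 0.06 on the other arrays. Without replicate 3 Rnf125 and Rnf145 were still called, while Rnf152, Rnf103 and Rnf169 were not. Macrophage markers (3 of 4) ran from −0.29 to 0.49 and adipocyte markers (2 of 4) from −0.89 to 0.43. In these 3 lists 0 were called by limma or by SAM, and 0 had an unadjusted p under 0.05. The part of these cells in the Rnf ratios was not tested.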

How the data were processed

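Total RNA of individual livers, 4 fasted and 4 refed, was labelled (200 ng each) and hybridised in pairs to 4 two-colour Agilent whole mouse genome arrays in a dye swap. The arrays shared 1 slide and 1 scan, so no batch could be set apart. The deposited scanner files hold raw median and mean intensity per spot, local background intensity and processed signals from Agilent's software. A further table that the authors deposited holds log2 ratios, normalized within arrays by loess in limma according to their methods. Its rows were matched by row number, its columns already run as fasted over refed (r of 0.975 to 0.992 with the ratios used here), its column medians are −0.117, −0.081, 0.057 and 0.014, and its background step is not given in the sources used here. It served as an alternative.

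The analysis started from median intensities (44397 spots per array) and used limma 3.58.1 under R 4.3.3. Spots with a local background above 3 times the array median in either channel were left out (55 over the 4 arrays). An earlier analysis of these data had set this limit after counts of calls were seen. Normexp (offset 50) corrected the background, control spots and outlier-flagged spots (197 to 322 per array) were left out, no spot was saturated, and loess was applied within arrays. For levels, intensities were then quantile-normalized on their averages, which leaves ratios unchanged. Spots of a probe were averaged. Probes stayed in when 1 condition or both gave a signal flagged well above background by the scanner software on each of the 4 arrays, and no value was missing (19719 of 39429 probes, 87 of 113 Rnf probes). The brightest kept probe stood for its gene. Signal over background and the number of arrays set the precision.

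Ratios were tested by lmFit and eBayes in limma, two-sided, Benjamini-Hochberg adjusted across the kept probes, and called at an adjusted p under 0.10 and at least 1.5-fold, the limits the study used with SAM. A second model added a dye term. The fit was also run on simulated data with known changes, and the outcome is not given here. The genes, role groups, pathway lists and markers were chosen with earlier results of these data known. Rnf genes were named where called, among the 8 highest or 8 lowest means, in a role group, with a called dye effect, with kept probes that differ in sign or by over 0.5, or past 1.5-fold on every array, and pathway genes where called. Other genes named (Rnf7, Rnf25, Rnf113a1, Rnf165, Rnf215, Ube2b, the uncalled targets of Rnf125 and the uncalled interferon genes) were chosen after their values were seen. Alternatives changed the background correction, source of values, normalization, filter, flags, dye term, test, fold limit, probe rule and arrays used. Promoters came from RefSeq (GRCm38.p6), and probe positions (mm9) from the array files. Values of 1 Rnf gene and of 1 gene of the E1 and E2 list are not reported here.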

Additional observations from a re-analysis of the deposited data

Results flagged for a closer look

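In 3 Rnf genes 1 array lay far from the other 3 by Dixon's gap test, in which the gap to the nearest array is set against the whole range. For Rnf165 replicate 3 had a ratio of −0.078 against 0.04 to 0.07 on the others. For Rnf139 replicate 4 had −0.33 against −0.04 to 0.00. For Rnf25 replicate 2 had −0.35 against −0.07 to −0.03. Chance alone sets about 1 in 20 such groups apart, and 70 were scanned. None of the 3 genes was called.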

How the results depend on the processing

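The ratio of Rnf125 stayed positive under all 21 alternatives, from 1.31 to 2.49, and without 1 replicate from 1.88 to 2.49. It lost its call only with normexp fitted on all spots (1.31), where only 5 genes of the whole array were called higher and 15 lower. Under that setting the Rnf genes called were 0 higher and 0 lower, dye effects were seen in 6, and the E1 and E2, other RING-type and RIG-I lists had 0, 1 and 0 called genes. With each array centred on its median in place of loess, 2 Rnf genes were called higher (Rnf125 and Rnf152), 2 had a dye effect and the RIG-I list had 3 calls. Over the whole array 198 genes were then called higher and 539 lower. With Agilent's processed signals 3 Rnf genes were called lower (Rnf113a1, Rnf144b and Rnf145), 2 had a dye effect and 15 other RING-type ligases were called. That setting called 563 higher and 704 lower of all 16094 genes. A dye term gave 2 Rnf genes called lower (Rnf145 and Rnf186) and 2 calls in the RIG-I list, as did the rebuilt SAM for that list (2). With the dye term 334 genes of the whole array were called higher and 369 lower. A 2-fold limit left 1 higher (Rnf125) and 0 lower, with 0, 2 and 0 calls in the 3 lists. It left 86 genes of the whole array higher and 116 lower. No fold limit gave 6 Rnf genes higher and 5 lower, 17 other RING-type ligases and 3 of the RIG-I list. Of all 16084 genes it called 798 higher and 1010 lower. Averaging the probes of a gene left 1 E1 or E2 call. Leaving out 1 replicate gave 1 to 3 Rnf genes higher, 1 lower, 0 to 9 dye effects, 2 to 3 E1 and E2 calls, 6 to 8 other RING-type calls and 0 to 3 in the RIG-I list. Fitting the channels separately, with the livers sharing an array tied by the correlation within spots, left 4 Rnf genes higher and 1 lower. Background limits of 2 and 5 times the median, added after the data had been seen, changed none of the Rnf calls. No Rnf call turned direction. The causes of these shifts were not tested.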
